A study of Mus musculus with 4 samples.

Results

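The 10 genes described here encode proteins of the cornified envelope and of squamous differentiation. They are the transglutaminase genes Tgm1, Tgm2 and Tgm3, the plakin genes Evpl and Ppl, Sfn, Sprr1a, and the suprabasal secreted genes Dmkn, Sbsn and Krtdap. All probes carrying one of these names on the array were taken, which gave 13 probes of 39429 and 10 gene names of 30010. Of the 13 probes, 12 passed the filter on dim probes, and all 10 genes were tested among 21517 genes. RNA came from ureters dissected from NMRI mouse embryos at stage E15.5. The cKO embryos carried Pax2-cre/+ together with Trp63(dN-flox/dN-flox), so that cre driven by Pax2 recombines the floxed ΔN part of Trp63. The control embryos were Trp63(dN-flox/?), so both groups carried at least 1 floxed allele, and the second control allele was not specified. Each of the 4 arrays held a sex-matched pair of RNAs, 1 cKO and 1 control, female in replicates 1 and 2 and male in replicates 3 and 4. The cKO RNA carried the red dye in replicates 1 and 3 and the green dye in replicates 2 and 4. Because every cKO genotype and no control genotype lists Pax2-cre, the effects of cre and of losing ΔNp63 cannot be told apart. No label says whether an RNA came from 1 embryo or a pool, so the spread between these 4 arrays may be partly technical. The p-values rest on the part of that spread left after a dye term, moderated by limma with the variances of all genes tested. The SDs given below are of the 4 ratios themselves and include any dye effect.

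The cornified envelope is the cross-linked protein shell that replaces the plasma membrane of terminally differentiating keratinocytes. Plakins such as envoplakin and periplakin are laid down first under the membrane, and transglutaminases then join them to involucrin, loricrin and small proline-rich proteins. The urothelium of the ureter does not cornify, but it is a layered epithelium with ΔNp63-positive basal cells, and several of these genes are also active in layered epithelia that stay moist. p63 is a transcription factor of basal cells and a known regulator of squamous programs.

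Trp63 itself was lower in the cKO RNA on all 4 arrays, with log2 ratios of cKO over control of -1.39, -1.18, -1.30 and -1.62 (mean -1.37 ± 0.18, SD, n = 4 arrays; adjusted p = 0.00328, limma). The 3 other Trp63 probes were at -1.26 ± 0.36, -0.81 ± 0.34 and -0.02 ± 0.16, and the place of the Trp63 probes relative to the floxed part was not analysed here. Between 72.8% and 76.5% of gene spots were well above background in the cKO RNA and between 71.8% and 77.0% in the control RNA, and no gene spot was saturated. Across all probes the ratios of 2 arrays correlated with a Pearson r between -0.09 (replicates 2 and 4) and 0.59 (replicates 2 and 3).

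The 10 genes split by direction in cKO ureters. Sfn, Tgm1 and Ppl were lower, Dmkn and Sprr1a were higher, and Tgm2, Tgm3, Evpl, Sbsn and Krtdap did not pass the test (adjusted p under 0.05, Benjamini-Hochberg over all genes, limma). Over all genes tested, 0.697% were lower and 0.497% higher by the same rule. An unadjusted p under 0.05 was reached by 8 of the 10 genes and by 8.03% of all genes tested. The median log2 ratio of the 10 genes was -0.19, against -0.000244 over all genes tested. When each kept probe was tested by itself, 0.58% of all kept probes were lower and 0.433% higher, and the same 5 genes had the called probes, with both Dmkn probes among them. The levels of cKO and control RNA did not overlap for 6 of the 10 genes, Tgm1, Tgm2, Ppl, Sfn, Dmkn and Sprr1a, which was the case for 6.38% of all genes tested. In whole-ureter RNA, fewer cells of a type and less RNA per cell cannot be told apart.

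**Figure D1:**
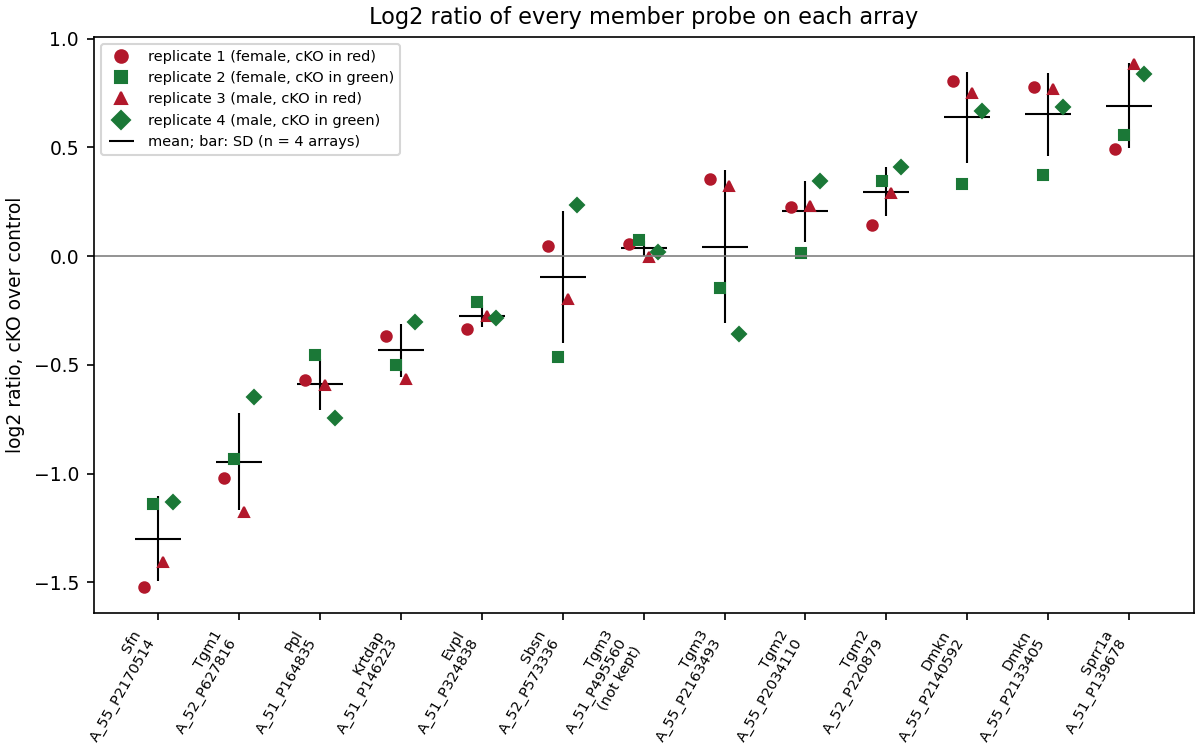
Log2 ratio of cKO over control (vertical axis) for each of the 13 probes, ordered by mean; points are the 4 arrays by replicate, red where cKO carried the red dye and green where it carried the green dye, horizontal lines are means and bars are SDs. Sfn, Tgm1 and Ppl lie below 0 and Dmkn and Sprr1a above 0 on all 4 arrays, while the bright Tgm3 probe changes sign with the dye.

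The transglutaminases form the isopeptide bonds of the envelope, and of the 3 genes only Tgm1 passed the test. Tgm1 encodes the membrane-anchored enzyme of keratinocytes. Its probe (mm9 chr14:56319032-56319091, minus strand) had normalised log2 intensities of 8.02, 8.11, 8.40 and 8.09 in the cKO RNA of replicates 1 to 4, against 9.04, 9.05, 9.58 and 8.73 in the control RNA. Every cKO level lay below every control level, with the smallest gap within an array in replicate 4. Tgm1 was 1.93-fold lower in cKO, a log2 ratio of -0.95 ± 0.22 (SD, n = 4 arrays; adjusted p = 0.00779, limma).

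Tgm2 encodes the widely expressed tissue transglutaminase, which is not specific to squamous cells. The brighter of its 2 probes (mm9 chr2:157942275-157942334, minus strand) gave 15.45, 15.62, 15.49 and 15.61 in cKO and 15.31, 15.27, 15.20 and 15.20 in control RNA on the log2 intensity scale. The groups did not overlap, but the log2 ratio of 0.30 ± 0.11 did not pass the test (adjusted p = 0.214, limma; 95% interval of the fit 0.12 to 0.48). The second probe, with 96 bases between them, had a ratio of 0.21 ± 0.14 and overlapping groups.

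Tgm3 encodes the transglutaminase of hair follicles and upper epidermis, and no difference between the genotypes could be shown for it. Its bright probe (mm9 chr2:129876035-129876094, plus strand) had log2 intensities of 12.98, 12.91, 13.15 and 12.72 in cKO and 12.63, 13.06, 12.83 and 13.07 in control RNA. cKO was higher on both arrays with cKO in red and lower on both with cKO in green, so the sign followed the dye. The mean log2 ratio was 0.04 ± 0.35 (95% interval of the fit -0.14 to 0.23), and the dye coefficient of red over green was 0.29 (unadjusted p = 0.00813, adjusted p = 1.00, limma). The second Tgm3 probe failed the filter, being above background on 2 of 4 arrays in cKO and 3 of 4 in control RNA, and averaged 0.04 ± 0.03. Per array, the log2 ratio of Tgm1 minus that of Tgm2 was -1.24 ± 0.18, and that of Tgm1 minus that of Tgm3 was -0.99 ± 0.56. These pairs were chosen after their values were seen and are given as a description.

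Both plakin linkers had negative ratios on all 4 arrays, and of the pair only Ppl passed the test. Ppl encodes periplakin, which ties the envelope to intermediate filaments. Its probe aligns to mm9 chr16:5086384-5086428 on the minus strand, a span of 45 bases for a probe of 60. The log2 intensities were 11.89, 11.95, 12.26 and 11.68 in cKO, against 12.46, 12.40, 12.85 and 12.43 in control RNA. All 4 cKO levels lay below all 4 control levels. Ppl was lower with a log2 ratio of -0.59 ± 0.12 (n = 4 arrays; adjusted p = 0.0361, limma). Without the pairing by array the call was lost (adjusted p = 0.116, limma).

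Evpl encodes envoplakin, the partner with which periplakin assembles. Its probe (mm9 chr11:116081921-116081980, minus strand) had log2 intensities of 13.34, 13.33, 13.52 and 13.15 in cKO and 13.67, 13.54, 13.79 and 13.43 in control RNA. cKO was below control within every array, yet the groups overlapped, since cKO of replicate 3 was above control of replicate 4. The log2 ratio of -0.28 ± 0.05 did not pass the test (adjusted p = 0.234, limma; 95% interval of the fit -0.45 to -0.10). The ratio of Ppl minus that of Evpl was -0.31 ± 0.10 per array, a description of a pair chosen after its values were seen.

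Sfn had the largest decrease of the 10 genes by mean ratio. It encodes stratifin, or 14-3-3 sigma, a phosphoprotein-binding adapter of stratified epithelia that is known as a p53 target and as a brake on the cell cycle. The probe (mm9 chr4:133156842-133156901, minus strand) had log2 intensities of 11.19, 11.48, 11.58 and 11.32 in cKO, against 12.71, 12.62, 12.99 and 12.45 in control RNA. The highest cKO level stayed below the lowest control level. Sfn was 2.46-fold lower, a log2 ratio of -1.30 ± 0.19 (n = 4 arrays; adjusted p = 0.00178, limma). None of the other 14-3-3 genes passed (0 of 6 lower and 0 of 6 higher; 0 at an unadjusted p under 0.05), with ratios of 0.06 ± 0.27 for Ywhaq, 0.09 ± 0.18 for Ywhae and 0.14 ± 0.09 for Ywhah. The 250 bases before the start of Sfn (chr4:133602169-133602418, minus strand, GRCm38.p6, sequence from RefSeq) are shown because they held the only Grainyhead match among the members. Capitals mark the match to AACCNGTT, here on the reverse strand.
Sfn: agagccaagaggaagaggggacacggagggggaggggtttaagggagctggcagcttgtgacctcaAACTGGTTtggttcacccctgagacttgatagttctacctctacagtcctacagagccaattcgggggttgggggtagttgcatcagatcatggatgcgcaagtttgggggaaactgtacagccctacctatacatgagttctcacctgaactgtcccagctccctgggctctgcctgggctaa

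Sprr1a had the largest increase of the 10 genes by mean ratio. It encodes a small proline-rich protein, a cross-bridging precursor of the envelope that is also induced in injured or stressed epithelia. Its probe (mm9 chr3:92287955-92288014, minus strand) had log2 intensities of 16.66, 16.77, 16.92 and 16.76 in cKO, against 16.17, 16.22, 16.04 and 15.92 in control RNA. All cKO levels were above all control levels, and the gap was larger on the male arrays (replicates 3 and 4) than on the female ones. Sprr1a was 1.62-fold higher, a log2 ratio of 0.69 ± 0.20 (n = 4 arrays; adjusted p = 0.0380, limma), and the female minus male difference of -0.33 did not pass its test (unadjusted p = 0.216, adjusted p = 1.00, limma). Median centring in place of loess ended the call, with an adjusted p of 0.0691 (limma).

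The suprabasal secreted genes Sbsn, Dmkn and Krtdap are neighbours in that order on chromosome 7 in the RefSeq gene table, and they did not move together. Dmkn encodes dermokine, a glycoprotein secreted by suprabasal keratinocytes. Its representative probe (mm9 chr7:31566013-31566072, plus strand) gave log2 intensities of 10.61, 10.41, 10.67 and 10.51 in cKO and 9.84, 10.03, 9.90 and 9.83 in control RNA. The groups did not overlap, and replicate 2 had the smallest gap. Dmkn was 1.57-fold higher, a log2 ratio of 0.65 ± 0.19 (n = 4 arrays; adjusted p = 0.0280, limma). The second Dmkn probe shares 55 of its 60 bases with the first, so its ratio of 0.64 ± 0.21 (adjusted p over all probes = 0.0349, limma) is not a separate measurement.

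Krtdap encodes keratinocyte differentiation-associated protein, a small secreted protein of stratifying keratinocytes. Its probe spans 229 bases of mm9 (chr7:31574534-31574762, plus strand), and had log2 intensities of 8.93, 9.25, 9.40 and 9.06 in cKO, against 9.30, 9.75, 9.97 and 9.37 in control RNA. cKO was below control within each array, but the groups overlapped. The log2 ratio of -0.43 ± 0.12 missed the threshold (adjusted p = 0.0926, limma; 95% interval of the fit -0.63 to -0.24), and it passed without replicate 2 (adjusted p = 0.0283) or without replicate 4 (adjusted p = 0.00767), while it was further from the threshold without replicate 1 (adjusted p = 0.186) or without replicate 3 (adjusted p = 0.776).

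Sbsn encodes suprabasin, another secreted product of suprabasal cells. Its probe (mm9 chr7:31540994-31541053, plus strand) had log2 intensities of 10.46, 10.38, 10.03 and 10.53 in cKO and 10.41, 10.85, 10.23 and 10.29 in control RNA. cKO was higher in replicates 1 and 4 and lower in replicates 2 and 3, with overlapping groups. The mean log2 ratio was -0.10 ± 0.30 (95% interval of the fit -0.41 to 0.21; adjusted p = 1.00, limma). Without replicate 2 the dyes were unbalanced, and the fit's estimate with the dye intercept, not a plain mean, was 0.079. The ratio of Dmkn minus that of Krtdap was 1.09 ± 0.20 per array, and that of Dmkn minus that of Sbsn was 0.75 ± 0.22, again for pairs chosen after their values were seen.

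**Figure D2:**
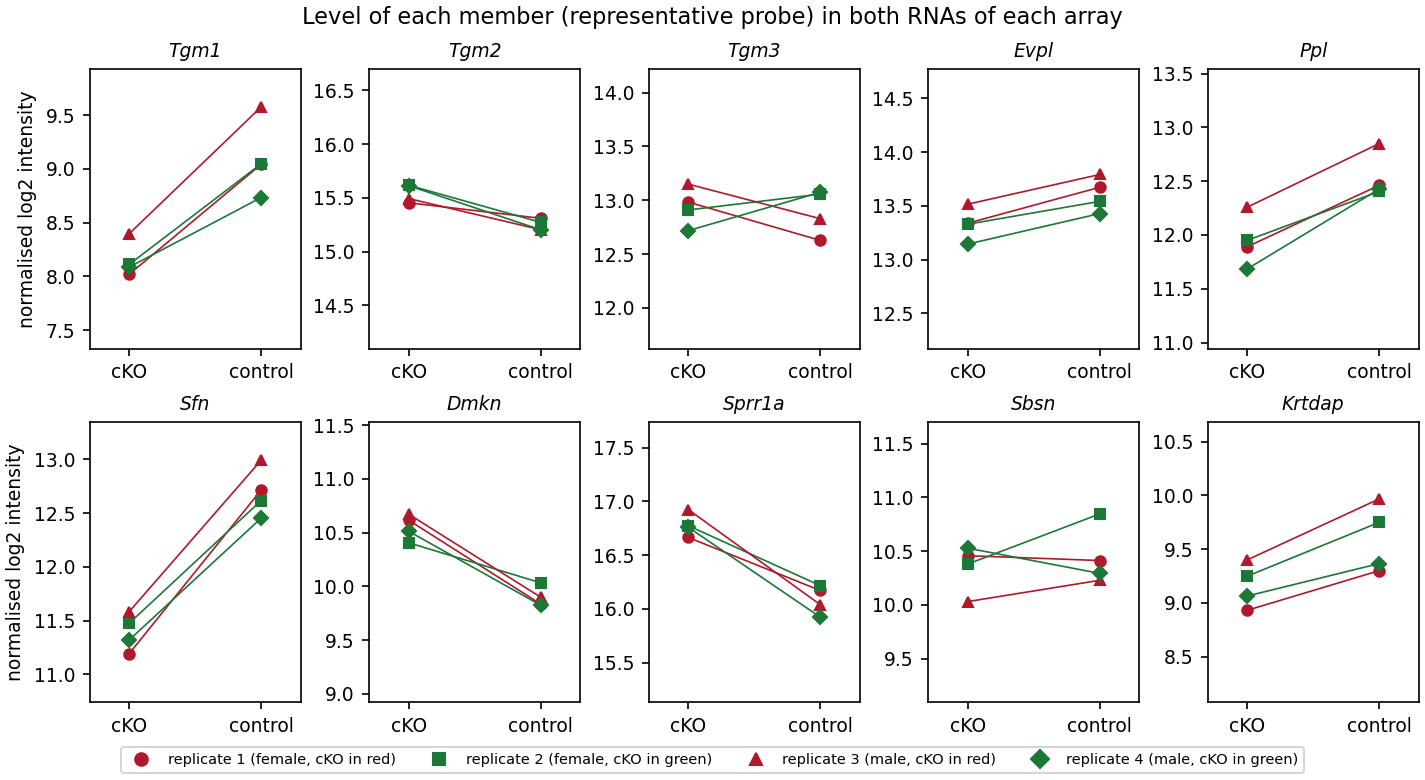
Normalised log2 intensity (vertical axis) of each of the 10 genes in cKO (left) and control (right) RNA; a line joins the RNAs of 1 array, and each panel spans the same number of log2 units. All 4 lines fall towards cKO for Tgm1, Evpl, Ppl, Sfn and Krtdap and rise towards cKO for Tgm2, Dmkn and Sprr1a, while the lines of Tgm3 and Sbsn cross.

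The sequence before the gene start was available from RefSeq for 7 of the 10 genes, in 10 windows. Tgm2, Evpl and Ppl had no entry. The motifs, chosen after the sequences were seen, were searched on both strands: AP-1 (TGANTCA), Grainyhead (AACCNGTT) and a p53 family site (CATGNNNNNNCATG). AP-1 is the Fos and Jun factor family of keratinocyte differentiation. Its motif was in 4 of the 7 genes, namely Dmkn at all 3 of its starts, Sprr1a with 2 matches, Sbsn and Krtdap. The first 2 Dmkn windows are offset by 2 bases and share the same match, so Dmkn has 2 distinct matches. It was in 7.82% of the 27025 genes of the table and in 6.75% of its 32851 windows. No match was found in the windows of Tgm1, Tgm3 or Sfn. The Grainyhead motif was in Sfn alone among the 7 genes and in 2.00% of all genes, and the p53 family motif was in 0 of the 7 genes and in 0.570% of all genes.

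The AP-1 windows are shown because they belong both to genes that were higher (Sprr1a and Dmkn) and to neighbours that did not pass the test (Sbsn and Krtdap). They lie at chr3:92485882-92486131, minus strand for Sprr1a, chr7:30763506-30763755, plus strand for the first start of Dmkn, chr7:30751221-30751470, plus strand for Sbsn and chr7:30787655-30787904, plus strand for Krtdap (GRCm38.p6, sequences from RefSeq). Capitals mark the AP-1 match.
Sprr1a: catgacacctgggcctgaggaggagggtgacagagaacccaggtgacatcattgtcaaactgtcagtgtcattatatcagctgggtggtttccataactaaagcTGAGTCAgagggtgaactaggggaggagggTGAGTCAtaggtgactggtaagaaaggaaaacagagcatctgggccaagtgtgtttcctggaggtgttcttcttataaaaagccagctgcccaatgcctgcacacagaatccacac
Dmkn: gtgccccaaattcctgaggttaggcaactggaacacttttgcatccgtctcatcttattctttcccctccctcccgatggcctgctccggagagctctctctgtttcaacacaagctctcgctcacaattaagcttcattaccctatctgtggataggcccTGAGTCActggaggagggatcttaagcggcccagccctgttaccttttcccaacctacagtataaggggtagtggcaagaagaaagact
Sbsn: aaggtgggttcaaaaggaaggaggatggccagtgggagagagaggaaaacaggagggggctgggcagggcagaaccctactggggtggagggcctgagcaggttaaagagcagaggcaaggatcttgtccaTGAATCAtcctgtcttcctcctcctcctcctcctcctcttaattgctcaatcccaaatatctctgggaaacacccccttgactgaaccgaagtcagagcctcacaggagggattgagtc
Krtdap: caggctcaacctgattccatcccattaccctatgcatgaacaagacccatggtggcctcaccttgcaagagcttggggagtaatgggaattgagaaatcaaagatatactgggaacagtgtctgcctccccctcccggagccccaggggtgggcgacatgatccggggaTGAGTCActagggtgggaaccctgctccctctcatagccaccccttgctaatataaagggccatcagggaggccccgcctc
The matches began 146 and 116 bases before the start in Sprr1a, 89 in Dmkn, 119 in Sbsn and 81 in Krtdap, and the Grainyhead match of Sfn began 184 bases before its start. Sbsn carried TGAATCA and the others TGAGTCA.

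**Figure D3:**
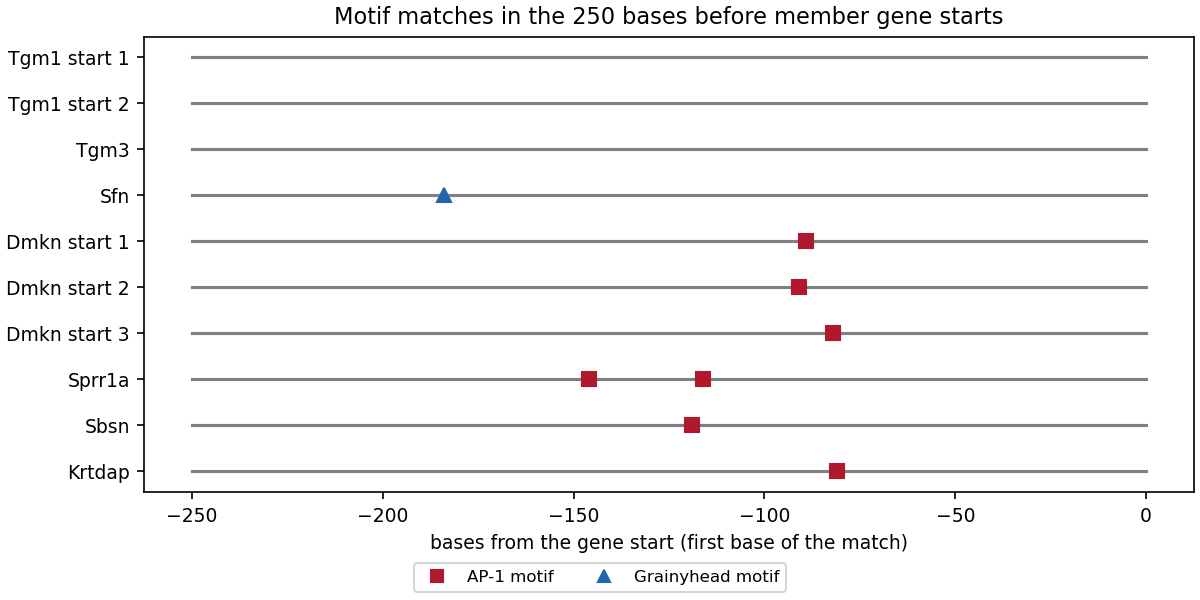
Place of motif matches in the 250 bases before each start (horizontal axis, bases from the start) for the 10 windows of 7 genes; squares are AP-1 and the triangle is Grainyhead. AP-1 matches lie 81 to 146 bases before the starts of Dmkn, Sprr1a, Sbsn and Krtdap, and the windows of Tgm1 and Tgm3 hold none; starts 1 and 2 of Dmkn are 2 bases apart and show the same match.

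Among 37 tested protein-coding neighbours, up to 3 on each side and not counting members, 0 were called (limma). Over all genes tested, 0.697% were lower and 0.497% higher, so 0 of 37 is near that share. At an unadjusted p under 0.05 (limma) were 2 of the 37 neighbours and 8.03% of all genes tested. The 2 neighbours were Rogdi near Ppl (0.23 ± 0.15) and Ivl, which follows Sprr4 beside Sprr1a on chromosome 3 (-0.77 ± 0.34; adjusted p = 0.0843, limma).

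The wider families showed where the members stood among related genes, in 6 lists holding 98 tested genes, of which 9 were lower and 1 higher. Over all genes tested, 0.697% were lower and 0.497% higher. The 9 include Trp63, the targeted gene, whose decrease follows from the design. No other transglutaminase passed the test (0 of 4 in either direction; 1 at an unadjusted p under 0.05), with log2 ratios of 0.36 ± 0.15 for Tgm5 (adjusted p = 0.118, limma), 0.13 ± 0.57 for F13a1 and -0.00 ± 0.17 for Epb42. Of 11 tested plakins and junction proteins of cornifying cells, 2 were lower and 0 higher. These were Perp, a desmosomal membrane protein known as a p63 target (-2.12 ± 0.36; adjusted p = 0.00190), and Pkp1, the desmosomal plaque protein plakophilin 1 (-2.11 ± 0.29; adjusted p = 0.000877, limma). Pkp3 (0.04 ± 0.19) and Macf1 (0.12 ± 0.17) did not pass, nor did the plakins Dsp (-0.32 ± 0.20) and Eppk1 (-0.39 ± 0.13).

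No other envelope precursor passed the test (limma; 0 of 25 tested in either direction, while 2 with negative and 1 with positive ratio had an unadjusted p under 0.05). Of the 52 precursors on the array, 22 were not above background in any RNA. Sprr2a2 (-0.04 ± 0.26), Sprr2g (0.30 ± 0.31) and Lce1a2 (0.03 ± 0.13) had the brightest probes of this list, and probes of the near-identical Sprr2 and Lce genes may share signal. Ivl, the gene of involucrin, and Cst6, a cystatin of cornifying cells (-0.61 ± 0.30; adjusted p = 0.119, limma), had negative ratios on all 4 arrays without passing.

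Among 23 tested keratins and enzymes of suprabasal keratinocytes, 2 were lower and 1 higher. Lypd3, a surface protein of the Ly6 family, had a ratio of -1.86 ± 0.19 (adjusted p = 0.00110), and Calml3, a calmodulin-like protein of differentiating keratinocytes, one of -0.78 ± 0.22 (adjusted p = 0.0273, limma). Klk6, a secreted serine protease, was at 0.71 ± 0.12 (adjusted p = 0.0181, limma), but its control RNA was above background on only 3 of 4 arrays. It passed the filter through the cKO RNA alone, where it is high, and it is the 1 higher gene of the 6 lists, so that count carries no weight. Krt13 (0.09 ± 0.18), Cers3 (0.03 ± 0.32) and Klk8 (-0.12 ± 0.25) did not pass.

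The list of regulators of squamous differentiation had 5 genes lower and 0 higher of 29 tested, Trp63 itself included. Zfp750, a zinc finger factor of terminal epidermal differentiation, had a ratio of -1.86 ± 0.20 (adjusted p = 0.00136, limma). Tfap2c, an AP-2 factor, was at -1.11 ± 0.21 (adjusted p = 0.00411), Ripk4, a kinase of epidermal differentiation, at -0.82 ± 0.18 (adjusted p = 0.0178), and Grhl3, a Grainyhead factor of barrier formation, at -0.68 ± 0.22 (adjusted p = 0.0471, limma). Klf5 (0.15 ± 0.21) and Gata3 (0.24 ± 0.28) did not pass.

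**Figure D4:**
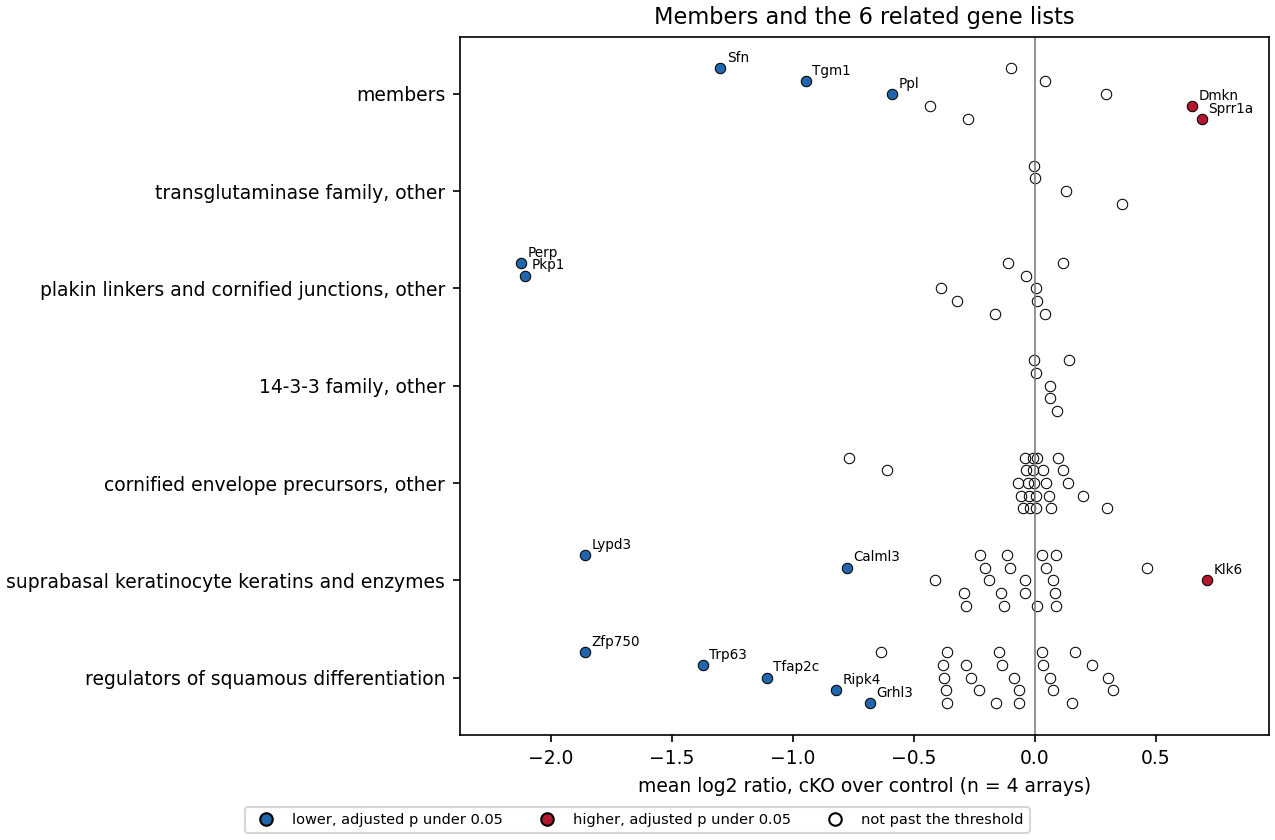
Mean log2 ratio of cKO over control (horizontal axis, 4 arrays) of each tested gene, with the 10 members in the top row and the 6 related lists below; filled points passed the adjusted p of 0.05 (blue lower, red higher). The members hold 3 lower and 2 higher genes, the regulators 5 lower and the other precursors none.

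Markers of cell types were read beside these results, and their part in them was not tested. The marker lists were chosen with earlier results of these data known. Of 12 basal cell markers, 7 were lower and 0 higher, against 0.697% and 0.497% of all genes tested. The other 5 did not pass, namely Lama3 (-0.52 ± 0.16), Bcam (-0.26 ± 0.21), Itga6 (-0.14 ± 0.29), Col17a1 (-0.11 ± 0.17) and Lamb3 (-0.00 ± 0.14). The summed level of the 12 was 15.55 to 15.73 in cKO and 15.84 to 16.18 in control RNA on the log2 scale, without overlap and lower in cKO. Of 16 general epithelial markers, 0 were lower and 1 was higher (Krt18, 0.50 ± 0.14), with a summed level of 19.08 to 19.17 in cKO and 18.92 to 19.05 in control RNA, also without overlap, and higher in cKO. Of 8 superficial urothelial markers, Upk2 (-0.54 ± 0.11) was lower and Krt20 (1.92 ± 0.19) higher, with sums of 17.95 to 18.22 in cKO and 18.00 to 18.36 in control RNA.

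Skin is a tissue rich in cornified envelope RNA. Of 11 skin and hair follicle markers on the array, Krt77, Krt25, Krt27, Krt71 and Dsg1a were not above background in any RNA, and none of the 5 tested passed (0 lower and 0 higher by limma; 0 at an unadjusted p under 0.05). Their sum was 13.23 to 13.37 in cKO and 13.23 to 13.46 in control RNA. For ureteric mesenchyme and smooth muscle 0 of 10 markers passed, with sums of 18.93 to 19.17 in cKO and 18.95 to 19.05 in control RNA. For endothelium 0 of 12 passed, with sums of 16.913 to 17.01 in cKO and 16.82 to 16.911 in control RNA, which did not overlap by a narrow margin and were higher in cKO. For macrophages 0 of 11 passed, with sums of 15.32 to 15.53 in cKO and 15.47 to 15.69 in control RNA. Of 7 tested nephron markers 1 was higher (Cubn, 2.22 ± 0.28), with sums of 14.59 to 14.93 in cKO and 14.40 to 14.80 in control RNA.

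The calls differed in the number of settings under which they passed. No member passed a test of the dye or of a sex difference after adjustment (limma). Of all 21517 genes tested, 0 passed for the dye and 15 for sex. At an unadjusted p under 0.05 for sex were 0 members and 202 of all genes (limma). The sex test leaves 1 residual degree of freedom, so these counts say little about the members. For the dye, Tgm3 had an unadjusted p of 0.00813 (limma). Sfn and Tgm1 passed under 13 of 14 alternative settings, Dmkn under 12, Sprr1a under 11 and Ppl under 10. Without the filter on dim probes, Ppl, Dmkn and Sprr1a lost their calls (adjusted p = 0.0968, 0.0925 and 0.143, limma), and with the authors' deposited ratios as they stand, with at least 1 ratio of exactly 0 in 1907 of the 21517 genes tested, all 5 did, at log2 ratios of -1.34 for Sfn, -1.17 for Tgm1, -0.61 for Ppl, 0.69 for Dmkn and 0.70 for Sprr1a.

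**Figure D5:**
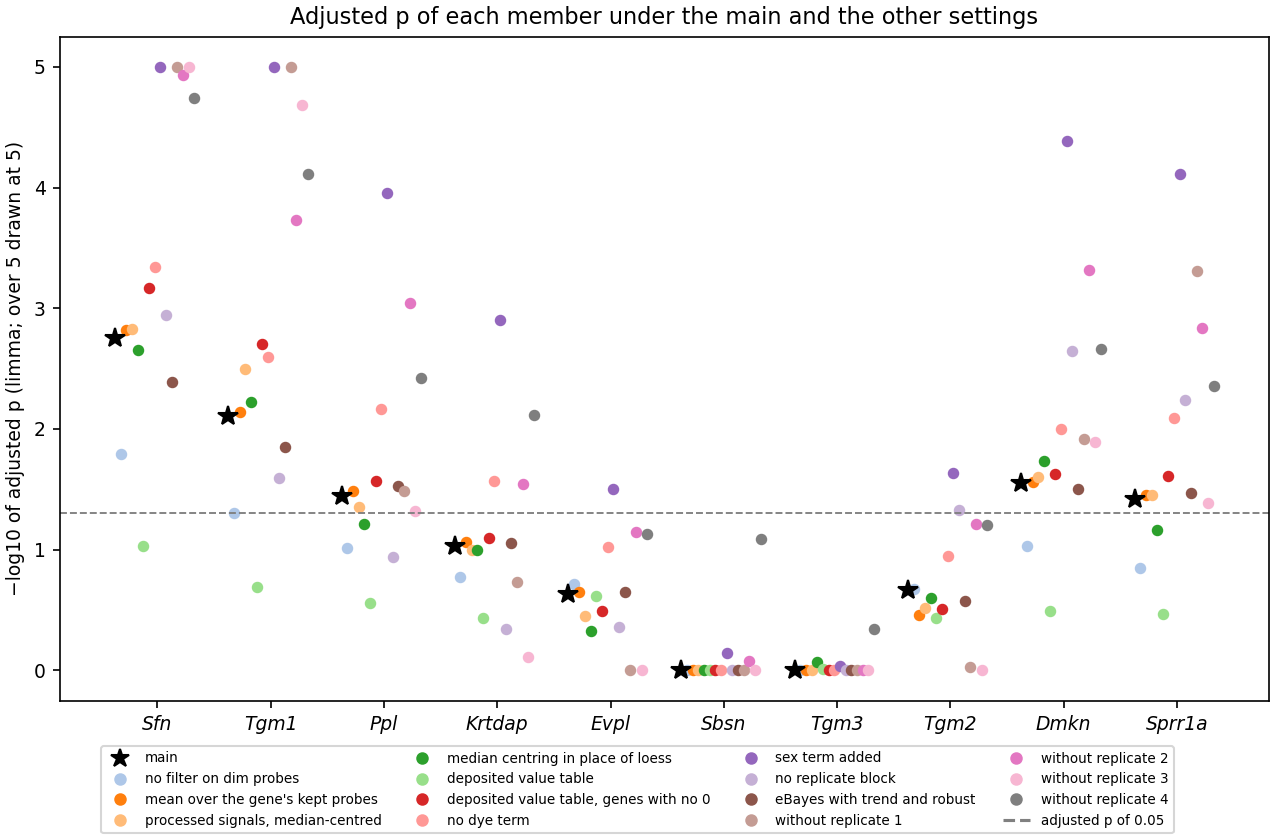
The −log10 of the adjusted p (vertical axis, limma, values over 5 drawn at 5) of each gene in the main fit (star) and under 14 other settings (points); the dashed line is an adjusted p of 0.05. Sfn and Tgm1 are above the line under 13 of the 14 settings, and Sbsn and Tgm3 below it under all of them. The 14 include the deposited ratios of genes with no exact 0, a setting chosen after seeing the data.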

How the data were processed

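Total RNA of ureters from mouse embryos was hybridised in pairs to 4 arrays with 2 channels. The deposited files are scanner output, with an intensity value per spot in both channels, which the authors extracted using Agilent Feature Extraction (version 10.7.3.1 in the headers and the submitters' processing notes). The value table deposited by the authors holds log2 ratios of cKO over control, with about 32% of the values of each array at exactly 0; the sources used here do not say how those were set. Probe coordinates are of build mm9, per the file headers.

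Mean signals and local backgrounds were corrected with normexp (offset 50) and normalised by loess within each array, in limma 3.58.1 (R 4.3.3), with control and nonuniform spots at weight 0. Values were averaged over the 4 spots of each probe. Kept probes had 0.5 or more of their spots well above background on every one of the 4 arrays, in either the cKO or the control RNA, and each gene was represented by its brightest kept probe. Ratios were fitted with lmFit and eBayes with an intercept for the dye, and the two-sided p-values received a Benjamini-Hochberg adjustment over every gene tested, or over all kept probes where a single probe is given. Levels of each RNA are log2 intensities after loess and Aquantile normalisation. The array is the pair, so every main fit is paired. The fit was also run on simulated ratios. Their variances were drawn from limma's fitted prior, which the fit assumes, so that run cannot show how well the fit suits these data.

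The members and the 6 pathway and 8 marker lists were chosen with earlier results of these data known. The genes named are all members, Trp63, the list genes past the threshold and the 3 brightest tested genes of each pathway list; any other named gene was chosen after its values were seen. Gene names come from the files, updated through the RefSeq gene table (assembly GRCm38.p6). The alternatives covered the filter, the probe rule, the normalisation, the deposited ratios, the dye, sex and pairing terms, the variance model and leaving out each array. The 4 arrays limit the precision of every value.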

Additional observations from a re-analysis of the deposited data

How the results depend on the processing

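The fitted log2 ratios of Tgm1, Tgm2, Evpl, Ppl, Sfn, Dmkn, Sprr1a and Krtdap kept their sign under all 14 alternatives. Those of Sbsn and Tgm3 turned without replicate 2, and neither gene passed the test under any alternative. Leaving out each array in turn gave -0.27 to 0.079 for Sbsn and -0.0089 to 0.096 for Tgm3. With 1 array left out the dyes are unbalanced, so these are estimates with the dye intercept and not plain means. Without the filter on dim probes 2 members were lower and 0 higher, since the adjusted p (limma) was 0.0968 for Ppl, 0.0925 for Dmkn and 0.143 for Sprr1a; over all genes 55 were lower and 31 higher, and in the lists 0 were higher. Median centring in place of loess left 1 member higher, with Sprr1a at 0.0691 and Ppl at 0.0612. The authors' deposited value table gave no member in either direction (0 lower, 0 higher, with adjusted p from 0.0934 for Sfn to 0.338 for Sprr1a among the 5 members called otherwise), 0 lower and 1 higher over all genes, and 0 lower and 0 higher in the lists. The ratios of those 5 members there were at least as large in size as in the main fit (Sfn -1.34, Tgm1 -1.17, Ppl -0.61, Dmkn 0.69, Sprr1a 0.70). Among the 21517 genes tested there, 1085 have all 4 ratios at 0 and thus no residual variance, and limma's prior degrees of freedom were 0.83, against 4.06 for the scanner signals. Over the 19610 genes with no exact 0 in that table, an alternative chosen after seeing the data, 3 members were lower and 2 higher, with 5.29 prior degrees of freedom. Without the dye term 266 genes were lower and 194 higher, and Krtdap passed the threshold (0.0272). A sex term on the red over green ratios, which leaves 1 residual degree of freedom, let the dye effect differ between the sexes. It did not let the cKO ratio differ by sex. With it, 5 members were lower and 3 higher, 668 genes lower and 609 higher, and 24 list genes lower and 5 higher. With no replicate block, that is without the pairing by array, 2 members were lower and 3 higher, with Ppl at 0.116 and Tgm2 at 0.0474, and 218 genes were lower and 169 higher. Leaving out 1 array gave 3 to 4 members lower and 2 higher each time, 155 to 853 genes lower and 128 to 748 higher, and 11 to 23 list genes lower and 1 to 5 higher. The counts over all genes were 507 lower and 429 higher without replicate 2, 853 lower and 748 higher without replicate 4, and 172 higher without replicate 1; Krtdap passed without replicate 2 (0.0283) or replicate 4 (0.00767) and not without replicate 1 (0.186) or replicate 3 (0.776). The causes of the other shifts were not tested. The second Tgm3 probe was above background on only 2 cKO and 3 control arrays, so its ratio says little about that gene.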
